A study of Mus musculus with 16 samples.

Results

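Cadherins and protocadherins were followed here through the contacts of their promoters, as measured by promoter-capture Hi-C in mouse cells. In this assay chromatin is cross-linked and cut with HindIII, ligated DNA is enriched with RNA baits for promoter fragments, and the fragment found joined to each promoter is counted. The members were the promoter fragments (baits) named for a gene of the clustered protocadherins (Pcdha, Pcdhb, Pcdhg), for another numbered protocadherin, or for a numbered cadherin other than Cdh5, with pseudogenes left out. This gave 50 fragments with 930 listed contacts, of 20017 fragments with 260860 contacts in all. Of these, 22 fragments with 602 contacts belonged to clustered protocadherins, and 28 fragments with 328 contacts to the others. The choice rested on names and used no measured value.

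The 16 samples were naive embryonic stem cells (ESC, day 0, kept in 2i and Lif) and epiblast-like cells (EpiLC, day 2) of 4 lines, with 2 samples in each of 8 groups. DNMT_KO lacks Dnmt1, Dnmt3a and Dnmt3b, the enzymes that methylate DNA. TET_KO lacks Tet1, Tet2 and Tet3, the enzymes that oxidise methylated cytosine. DNMT_WT and TET_WT are the parental wild-type lines of these knock-outs, and the number of clones behind each is not given. The deposited table holds 1 CHiCAGO score for each contact in each group, where a high score means more read pairs than expected at that distance, and each listed contact reaches 5, the calling threshold, in at least 1 column. A column therefore has no SD, its sequencing depth is unknown, and the 4 lines serve as the replicates of a stage. The scores do not measure RNA, so neither the identity of the cells nor the deleted genes were checked with marker genes.

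Classical cadherins are calcium-dependent adhesion proteins that bind the same cadherin on the next cell and connect to actin through catenins. Cdh1 (E-cadherin) holds embryonic stem cells and the epiblast together, and Cdh2 (N-cadherin) takes its place in many tissues as cells leave the epithelium. The clustered protocadherins lie in 3 neighbouring gene arrays, alpha, beta and gamma, with rows of promoters that bind CTCF and carry DNA methylation where they are silent. Neurons choose among these promoters and so acquire a cell-surface identity, and distant enhancers reach the chosen promoter by looping.

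RefSeq promoter sequence (250 bases before to 50 after a gene's start, GRCm38.p6) was matched for 17 of 50 members, and for 15 of them the start lay inside the captured fragment. CpG sites are where the enzymes missing in these lines act, so they are shown in capitals for the member that rose most and for 2 other delta protocadherins. All run 5′ to 3′ along the gene: Pcdh17 from chr14:84443313-84443612 (plus strand), Pcdh8 from chr14:79771263-79771562 (minus strand) and Pcdh7 from chr5:57717831-57718130 (plus strand).
Pcdh17: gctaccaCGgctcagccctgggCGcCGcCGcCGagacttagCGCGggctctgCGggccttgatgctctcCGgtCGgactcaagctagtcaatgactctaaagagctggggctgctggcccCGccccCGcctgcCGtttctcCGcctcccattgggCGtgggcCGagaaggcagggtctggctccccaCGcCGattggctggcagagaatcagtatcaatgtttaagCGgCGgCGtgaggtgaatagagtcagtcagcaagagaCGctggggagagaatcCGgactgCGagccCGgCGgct
Pcdh8: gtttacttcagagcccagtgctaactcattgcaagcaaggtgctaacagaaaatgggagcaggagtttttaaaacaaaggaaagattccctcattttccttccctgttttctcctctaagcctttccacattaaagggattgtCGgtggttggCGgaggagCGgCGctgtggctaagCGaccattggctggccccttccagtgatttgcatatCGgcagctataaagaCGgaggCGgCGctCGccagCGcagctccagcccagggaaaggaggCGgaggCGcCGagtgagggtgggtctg
Pcdh7: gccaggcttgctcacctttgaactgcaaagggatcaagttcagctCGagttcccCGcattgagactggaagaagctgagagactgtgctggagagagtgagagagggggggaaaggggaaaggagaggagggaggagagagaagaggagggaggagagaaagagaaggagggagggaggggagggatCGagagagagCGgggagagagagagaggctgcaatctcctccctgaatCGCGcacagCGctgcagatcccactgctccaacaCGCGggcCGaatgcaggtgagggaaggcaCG
The Pcdh17 window held 26 CpG sites, that of Pcdh8 14 and that of Pcdh7 11, against a median of 7 over 32851 RefSeq promoters of this length. Over the 15 members the number ran from 4 to 38 with a median of 14. The letters CACCTG, an E-box bound by Snai and Zeb repressors of Cdh1, were searched on both strands and found in 2 of the 15 windows (Pcdh7 and Cdh7), against 20.2% of all promoters. The letters CCCTC, a short core of the CTCF motif, were found on either strand in 12 of the 15, against 66.0% of all promoters. Pcdh17, Pcdh20 and Cdh15 were the 3 windows without them.

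On GRCm38, the RefSeq gene spans place the alpha array at chr18:36930285-37188897, the beta array at chr18:37264998-37521419 and the gamma array at chr18:37661775-37841873. The clustered members were 2 alpha, 19 beta and 1 gamma fragments. The HindIII fragments of all members ran from 569 to 27112 bases, with a median of 5670.5. In 48 of 50 cases the fragment overlapped the RefSeq gene of its name. The exceptions were the fragment named Pcdha11, which holds an edge of the Pcdha1 span, and the fragment named Pcdhgc5, which holds an edge of the Pcdhga3 span. These are transcripts of one array that share their last exons, so both fragments are called below by the name in the table. Some beta fragments hold the edge of a neighbouring gene as well, such as Pcdhb7 in the Pcdhb6 fragment and Pcdhb16 in the Pcdhb15 fragment.

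The contacts of clustered members differed in kind from those of the other cadherins. Their median distance was 258 kb, against 324 kb for the others and 275 kb for all contacts listed, and none spanned more than 1 Mb, against 33 of 328 among the others. A promoter fragment lay at the far end of 79 clustered contacts (13.1%) and of 11 other contacts (3.35%), against 9.12% in the whole table. The score reached 5 in all 8 columns for 60 clustered contacts (9.97%) and 19 of the others (5.79%), against 6.70% of all. In only 1 column it reached 5 for 188 clustered contacts (31.2%) and 153 of the others (46.6%), against 44.0% of all. The table lists every contact because some column passed the threshold, so these shares describe listed contacts and not all contacts of a fragment.

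Of the 602 clustered contacts, 353 had their far end between the first and the last captured fragment of the clusters (chr18:36930163-37676723, which ends early in the gamma array) and 249 outside that interval. Members of the 3 arrays met each other in 65 listed contacts, which are 62 pairs, 3 of them listed from both ends. No such contact was listed between any 2 of the other members. The highest mean score over the 8 columns was that of Pcdha3 with the Pcdha11 fragment, 14.9 kb apart (22.2, from 15.8 to 33.9 over the columns). Pcdha3 with Pcdhb1 followed at 318 kb (17.6), then Pcdhb5 with Pcdhb13 at 118 kb (15.5), Pcdhb21 with Pcdhgc5 at 162 kb (10.5) and Pcdhb2 with Pcdha11 at 363 kb (10.1). All 5 scored above 5 in every column. Outside the clusters, 86 of 315 cis contacts with all scores ended inside the member's own gene, and 9 members had such contacts, led by Cdh12 (25 of 26), Cdh23 (24 of 28) and Cdh13 (12 of 16). The highest mean score outside the clusters was that of Cdh12 within its own gene (13.6). Further top contacts were taken only for a set list of classical cadherins and delta protocadherins. The highest of these were Pcdh8 with a fragment 444 kb away whose nearest gene is Olfm4 (12.6) and Pcdh1 with a fragment nearest Arap3 (11.01). For Cdh3 the highest was 8.04 near Zfp90, for Pcdh18 5.22, for Cdh11 4.73 and for Cdh4 3.98 within its own gene. Among members with too few contacts for a promoter value, the highest contact of Pcdh19 had a mean score of 3.84, that of Pcdh10 2.27 and that of Pcdh7 1.28.

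The passage from ESC to EpiLC was examined with a promoter value. It is the mean asinh score over a fragment's listed contacts, with the asinh scores quantile-normalised between columns. For high scores a difference of 0.69 on this scale is a doubling of the score. The value could be formed for 42 members with at least 3 complete contacts, all 22 clustered and 20 others. Cdh2, Cdh18, Cdh19, Cdh22, Cdh26, Pcdh7, Pcdh10 and Pcdh19 had fewer. By limma with line as a block and Benjamini-Hochberg adjustment over 15677 fragments, 2 members rose in EpiLC (Pcdh17 and Pcdhb22) and 1 fell (Cdh13), that is 3 of 42, where 8.87% of all fragments were called (3.73% rose and 5.14% fell). At an unadjusted limma p under 0.05 there were 11 of the 42 members, 4 of them among the 22 clustered. Of all 15677 fragments 4321 were, so members held no larger a share. The median difference was 0.08 in the clustered members and 0.08 in the others, against -0.01 over all fragments. A positive difference was found in 14 of 22 clustered and 13 of 20 other members, against 48.2% of all fragments. The 8 tested non-clustered protocadherins were all positive, with a median of 0.12, and 5 of the 12 tested cadherins were.

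**Figure D1:**
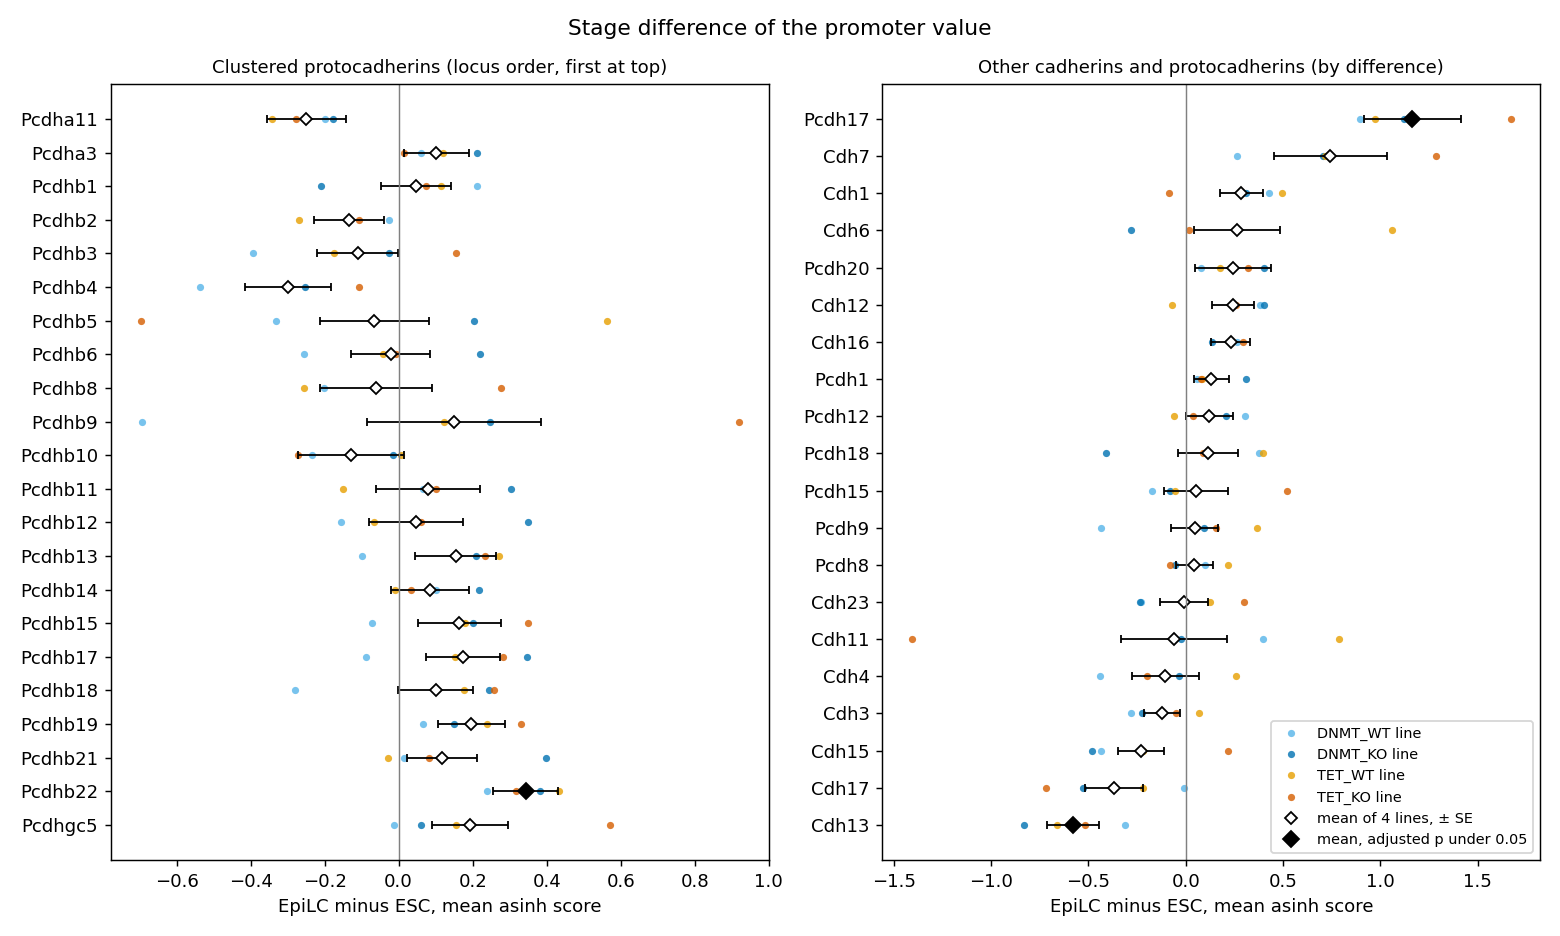
EpiLC minus ESC difference of the promoter value (mean asinh score) for the 42 tested members. Coloured points are the 4 lines, diamonds their mean with the standard error of the limma fit, and filled diamonds mark an adjusted p under 0.05. Pcdh17 and Pcdhb22 stand to the right and Cdh13 to the left, and the beta fragments tend to lie further right along the array, from Pcdhb4 (-0.30) to Pcdhb22 (0.34).

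Pcdh17, a delta protocadherin of developing axons and synapses, showed the largest rise. Column values are given from here on in the order DNMT_WT, DNMT_KO, TET_WT, TET_KO. Its promoter value in ESC was 0.45, 0.14, 0.55 and 0.79, and in EpiLC it was 1.35, 1.26, 1.52 and 2.46. All EpiLC columns lay above all ESC columns, and TET_KO was the highest line at both stages. The difference was 1.16 ± 0.25 (SE, 4 lines, adjusted p = 0.0153, limma). Of its 8 listed contacts none reached 5 in ESC, and in EpiLC 2, 1, 1 and 6 did, with the most in TET_KO. These contacts are therefore listed only through EpiLC columns, which favours a higher EpiLC value, and the p takes no account of this. Only 6 contacts had all scores, and 5 of these joined the promoter to a stretch without RefSeq genes about 2.1 Mb away, with Diaph3 the nearest gene. Its highest contact there (chr14:86562770-86563261) scored 0.00 in the ESC of DNMT_WT, DNMT_KO and TET_WT and 1.89 in TET_KO. In EpiLC it scored 3.12, 5.30, 4.54 and 8.95, a difference of 1.97 ± 0.42 that narrowly missed the threshold for single contacts (adjusted p = 0.0507, limma). Contacts over 1 Mb were higher in EpiLC across the whole table, with a median difference of 0.34 and 66.6% positive among 10587 contacts, and their part in the Pcdh17 result was not tested. With contacts within 1 Mb only, Pcdh17 had too few for a value. Without TET_KO the rise was 0.996 (adjusted p = 0.0593), and without DNMT_KO 1.18 (adjusted p = 0.0588), so that the call was lost.

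Cdh7, a type II cadherin of neural crest and brain, had the next largest difference and its contacts were also far, all 7 complete ones over 1 Mb. Its ESC values were 0.05, 0.00, 0.64 and 0.89, while the EpiLC values were 0.31, 0.71, 1.36 and 2.18. It was higher in EpiLC in 4 of 4 lines, but the columns of the stages overlapped, with the TET lines above the DNMT lines at both stages. Of its 9 listed contacts none reached 5 in a DNMT column. In TET_WT and TET_KO, 1 and 1 did in ESC and 3 and 5 in EpiLC. The contacts are therefore listed only through TET columns, mostly of EpiLC, which favours higher values there. The difference of 0.74 ± 0.29 did not pass (adjusted p = 0.111, limma).

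Cdh13 (T-cadherin), which is anchored to the membrane by a lipid and has no cytoplasmic part, was the member that fell. It stood at 1.93, 2.40, 2.06 and 2.15 in the ESC columns. In the EpiLC columns it stood at 1.62, 1.57, 1.40 and 1.63. The stages did not overlap, and the EpiLC columns were close together. The difference was -0.58 ± 0.13 (adjusted p = 0.0181, limma), with 15 of its 16 contacts negative. Within the gene itself 11 of 12 contacts were negative, at distances of 424 to 710 kb from the bait. The strongest of them in ESC (chr8:118849926-118851477) had a mean score of 8.01 in ESC and 6.13 in EpiLC, and the farthest (chr8:118996259-118997361) 4.18 and 0.79. At a score of 5 or more it had 5, 9, 6 and 7 contacts before the passage and 0, 2, 1 and 3 after it. Most of its 16 contacts are therefore listed only through ESC columns, which favours a lower EpiLC value. The p and the count of negative contacts take no account of this. Leaving out DNMT_KO (adjusted p = 0.104), TET_WT (0.0614) or TET_KO (0.0634) ended the call.

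**Figure D2:**
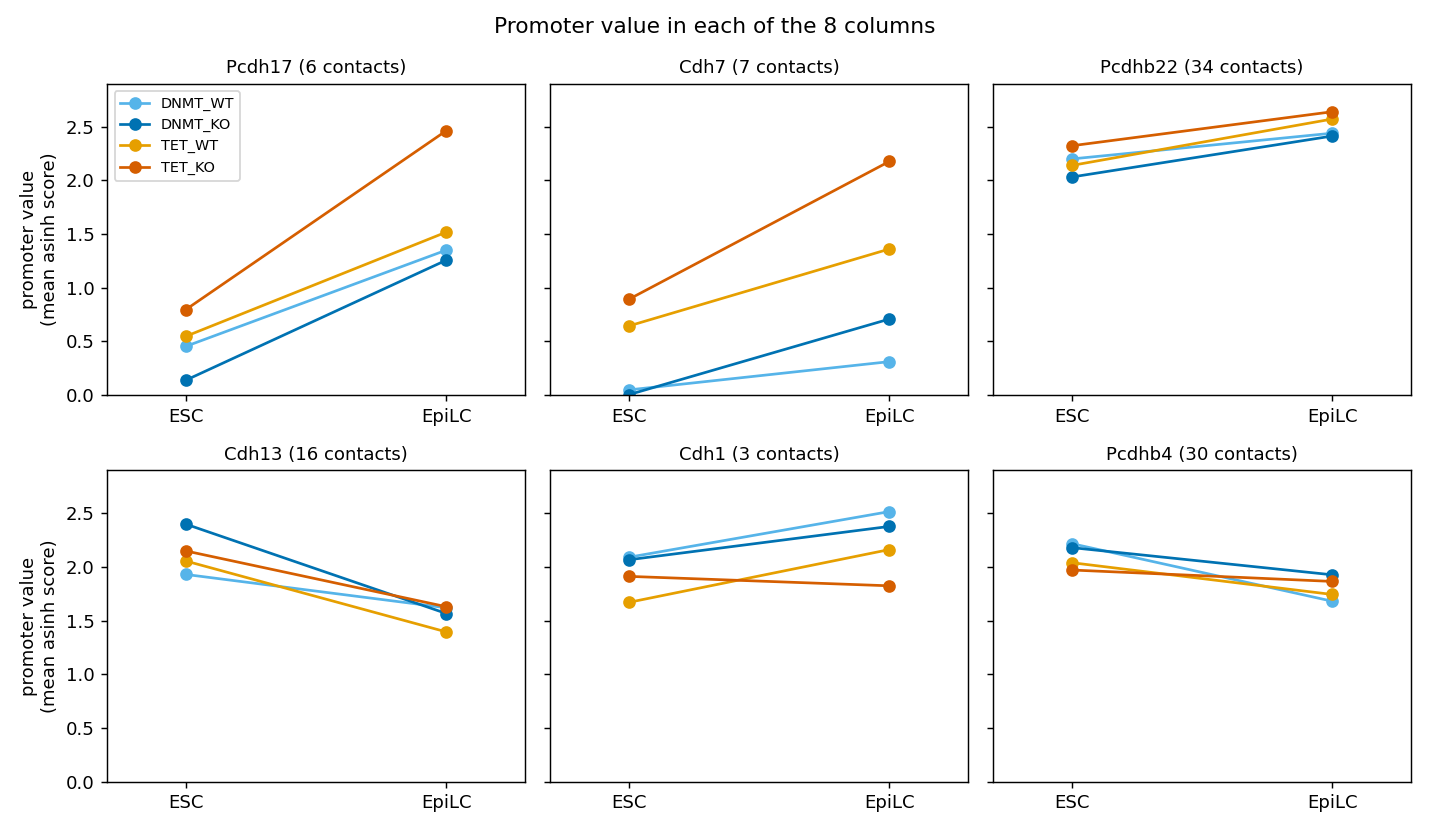
Promoter value (mean asinh score) of 6 members in ESC and EpiLC, with 1 line per cell line and the number of complete contacts above each panel. Pcdh17 and Pcdhb22 are higher and Cdh13 and Pcdhb4 lower in EpiLC in all 4 lines, and Cdh1 is higher in 3 of 4.

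None of the other classical cadherins was called, and Cdh2 had too few contacts to be tested. Cdh1 (E-cadherin) rested on 3 contacts, and its value went from 2.09 to 2.52 in DNMT_WT, from 2.07 to 2.38 in DNMT_KO, from 1.67 to 2.16 in TET_WT and from 1.91 to 1.82 in TET_KO. TET_KO alone went down, and the difference was 0.29 ± 0.11 (adjusted p = 0.108, limma). Its strongest contact, 48.4 kb into its own gene, had a mean score of 4.81 in ESC and 7.22 in EpiLC. Cdh3 (P-cadherin), the neighbour of Cdh1, was -0.12 ± 0.09 (adjusted p = 0.417) over 13 contacts at 39.1 to 100.5 kb. Cdh4 (R-cadherin) was -0.10 ± 0.17 and Cdh11, a mesenchymal cadherin, -0.06 ± 0.27, both with adjusted p above 0.7 and with a sign that turned without scaling. Cdh2 had 1 listed contact, with an intergenic fragment 596 kb away, whose score was 5.10 in DNMT_KO ESC and at most 2.34 in any other column.

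Among cadherins of single tissues, Cdh12 (brain, 0.24 ± 0.11, adjusted p = 0.159), Cdh16 (kidney, 0.23 ± 0.10, 0.14) and Cdh6 (kidney and neural crest, 0.26 ± 0.22, 0.469) lay above 0. Cdh17 (intestine, -0.37 ± 0.15, 0.118) and Cdh15 (muscle, -0.23 ± 0.12, 0.208) lay below. Cdh23 and Pcdh15, which together form the tip link of sensory hair cells, were at -0.01 ± 0.12 and 0.05 ± 0.17. None of these passed. Pcdh12, of the vascular endothelium, was at 0.12 ± 0.12 and did not pass either. Of the delta protocadherins that were tested besides Pcdh17, Pcdh1 (0.13 ± 0.09), Pcdh18 (0.11 ± 0.15), Pcdh9 (0.04 ± 0.12) and Pcdh8 (0.04 ± 0.09) had adjusted p from 0.358 to 0.847. Pcdh20 (0.24 ± 0.19), on the same chromosome as Pcdh17, had 16 of 22 contacts positive, and one of them inside Tdrd3, 1006 kb away, had a mean score of 0.35 in ESC and 4.52 in EpiLC (difference 1.83 ± 0.44, adjusted p = 0.0719).

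Pcdhb22, the last gene of the beta array, was the clustered member that rose. The ESC columns stood at 2.20, 2.03, 2.14 and 2.32, and those of EpiLC at 2.44, 2.41, 2.57 and 2.64. The stages did not overlap. The difference was 0.34 ± 0.09 over 34 contacts (adjusted p = 0.0267, limma), and the call was lost without DNMT_KO (adjusted p = 0.100), TET_WT (0.105) or TET_KO (0.0874). Its count of contacts at 5 or more went from 16, 13, 15 and 22 to 23, 22, 28 and 28. Pcdhb19 also had every EpiLC column (2.38 to 2.54) above every ESC column (2.17 to 2.31), but its difference of 0.20 ± 0.09 did not pass (adjusted p = 0.165). Without overlap, 2 of 22 clustered members were higher in EpiLC, where 6.08% of all fragments were, and 2 were lower (Pcdhb4 and Pcdha11), where 7.48% were.

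Of the other beta fragments late in the array, Pcdhb17 was at 0.17 ± 0.10, Pcdhb15 at 0.16 ± 0.11 and Pcdhb13 at 0.15 ± 0.11, and the Pcdhgc5 fragment was at 0.19 ± 0.10. Their adjusted p ran from 0.236 to 0.372.

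Negative differences were found among alpha and early beta fragments, though Pcdha3 (0.10 ± 0.09) and Pcdhb1 (0.05 ± 0.09) at the same end were above 0. Pcdhb4 had ESC values of 2.22, 2.18, 2.04 and 1.97 and EpiLC values of 1.68, 1.93, 1.74 and 1.87, a difference of -0.30 ± 0.12 (adjusted p = 0.107). The Pcdha11 fragment had 2.08, 2.05, 2.08 and 2.21 in ESC and 1.88, 1.88, 1.74 and 1.94 in EpiLC, a difference of -0.25 ± 0.11 (adjusted p = 0.142). Both were lower in EpiLC in every line. Pcdhb2 (-0.13 ± 0.09), Pcdhb10 in the middle of the array (-0.13 ± 0.14) and Pcdhb3 (-0.11 ± 0.11) also lay below 0, with adjusted p from 0.372 to 0.599. Pcdhb5 was at -0.07 ± 0.15 (adjusted p = 0.818), with a sign that turned in the wild types alone and without TET_KO. Across the 19 beta fragments the stage difference followed the order along the array, with a Spearman coefficient of 0.807. This is a description of fragments that share partners and columns, and no p was given.

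The stage differences of beta contacts varied with the partner's place in the locus. Of 172 contacts between beta fragments and the gamma array, 138 (80.2%) had a positive stage difference and the median was 0.27. Over all contacts of 100 kb to 1 Mb, 48.0% were positive with a median of -0.02. Of 94 contacts between beta fragments and the alpha array, 62 were negative and the median was -0.21. The gamma contacts spanned 147 to 451 kb with a median of 257 kb, and the alpha contacts 130 to 536 kb with a median of 330 kb. Over all contacts, 48.8% were positive at 100 to 300 kb and 47.2% at 300 kb to 1 Mb. The part of distance in the contrast was not tested. Within the beta array the median was -0.04 over 134 contacts, between the beta and gamma arrays 0.23 over 42, and beyond the gamma array -0.05 over 73. Before the alpha array, on its outer side, 20 of 30 contacts were positive with a median of 0.11. There the lines differed in sign, with means of -0.13 in DNMT_WT, -0.09 in DNMT_KO, 0.24 in TET_WT and 0.53 for TET_KO. No contact of a beta fragment with the stretch between the alpha and beta arrays was among those with all scores. These classes were chosen after the stage differences had been seen, and contacts that share a fragment are not independent, so no test was made.

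**Figure D3:**
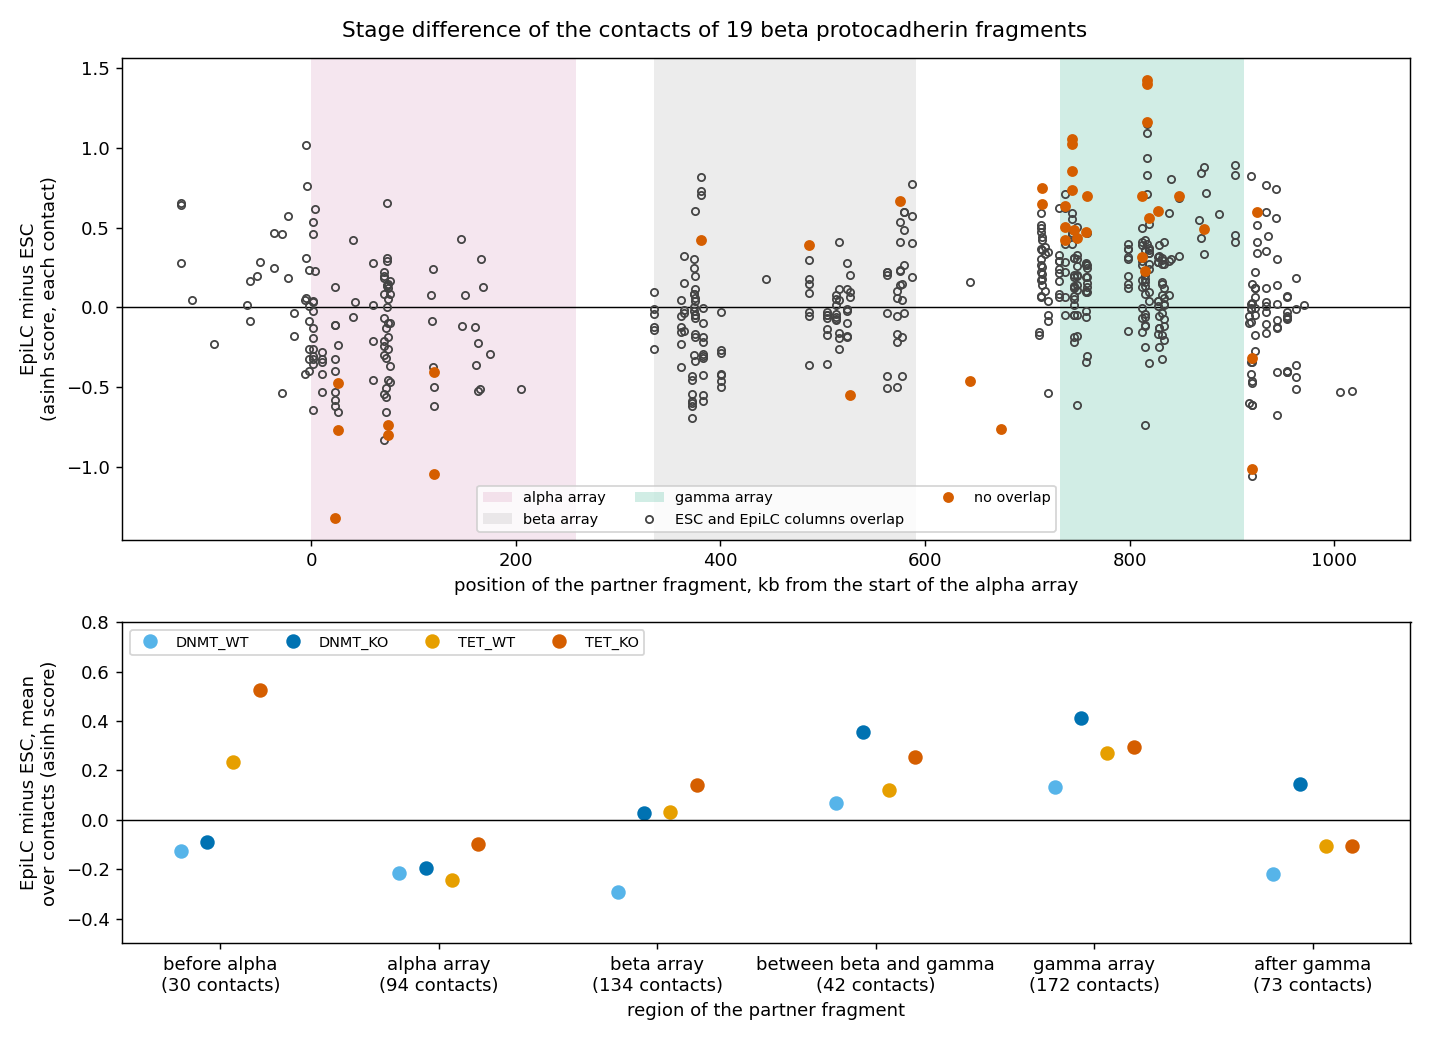
Upper panel: stage difference (EpiLC minus ESC, asinh score) of each contact of the 19 beta fragments against the partner's position in kb from the start of the alpha array, filled where the ESC and EpiLC columns do not overlap. Lower panel: mean over the contacts of each region in the 4 lines, where all 4 lines are above 0 for the gamma array (0.13 to 0.41) and below 0 for the alpha array (-0.24 to -0.10).

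Each line showed both directions. Towards the gamma array the mean difference was 0.13, 0.41, 0.27 and 0.29. Towards the alpha array it was -0.21, -0.20, -0.24 and -0.10. The number of beta to gamma contacts at a score of 5 or more was 72, 59, 67 and 93 among ESC columns against 94, 102, 98 and 121 among EpiLC columns. Every line had more such contacts in EpiLC and the stages did not overlap, though by a single contact between TET_KO ESC and DNMT_WT EpiLC. Towards the alpha array the ESC columns had 44, 42, 42 and 43 and the EpiLC columns 37, 34, 31 and 34, so that all EpiLC columns were lower. The scores in EpiLC lay above those in ESC without overlap for 21 gamma contacts (12.2%) and below for 0, where 3.95% and 4.78% of all contacts did so. For the alpha array the numbers were 0 above and 7 below.

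The sign towards the gamma array differed between early and late beta fragments. In the fragments from Pcdhb9 to Pcdhb22 the median difference with the gamma array was positive in all 12 that had such contacts. These had 1 to 21 contacts each, with 1 each in Pcdhb9 and Pcdhb10. In Pcdhb22 (19 of 19) and Pcdhb19 (21 of 21) every contact was positive. In Pcdhb2, Pcdhb3, Pcdhb4, Pcdhb5 and Pcdhb6 the median was negative, over 1 to 7 contacts each. Early fragments also lie farther from the gamma array. The median distance of these contacts was 443 kb in Pcdhb3 and 370 kb in Pcdhb4, against 227 kb in Pcdhb22. The part of distance was not tested. With the alpha array the median was negative in 13 of 16 beta fragments, and the 3 exceptions (Pcdhb12, Pcdhb14 and Pcdhb15) had 1 contact each. The alpha fragments themselves had 11 contacts within their own array, all 11 negative with a median of -0.43, and 18 with the beta array, of which 13 were negative.

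As single contacts, 2 of the 598 clustered ones passed limma (adjusted over 244865 cis contacts), both rising, where 0.315% of all contacts were called and 0.207% rose. At an unadjusted limma p under 0.05 there were 87 of the 598 clustered contacts and 125 of all 913 member contacts. Of all 244865 cis contacts 40673 were, which is a larger share. The first called contact joined Pcdha3 to the fragment of Taf7 (chr18:37643284-37644344), which encodes a subunit of the general transcription factor TFIID and lies between the beta and gamma arrays, 697 kb away. Its ESC scores were 4.47, 5.41, 1.59 and 1.56, against EpiLC scores of 10.5, 9.13, 7.74 and 6.62. All EpiLC columns were above all ESC columns (difference 1.03 ± 0.20, adjusted p = 0.0401). The second joined Pcdhb19 to a fragment in the gamma array (chr18:37673568-37673980), within the Pcdhga1 and Pcdhga2 spans, 176 kb away. Its score was 6.62, 5.52, 3.36 and 2.77 in ESC and 9.17, 12.6, 9.62 and 10.5 in EpiLC, again without overlap (0.86 ± 0.17, adjusted p = 0.0456). In both contacts the TET lines started lower than the DNMT lines in ESC. Leaving out any 1 line ended both calls.

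The same partner fragments returned across the arrays, and 54 of them were shared by 5 or more clustered members. The most widely shared (chr18:37673981-37676723) met 15 members, 11 of them positive, with a mean score of 4.79 in ESC and 5.53 in EpiLC. The next (chr18:37743425-37746548) met 14, 8 of them positive, at 7.15 and 7.79. Those named below differed more between the stages. The gamma fragment at chr18:37673568-37673980 met 9 beta members (Pcdhb12 to Pcdhb22), with a positive difference in all 9 and a mean score of 3.68 in ESC and 7.40 in EpiLC. The Taf7 fragment met 12 members, all 12 positive, at 4.0 and 5.74. A further gamma fragment (chr18:37746549-37747002) met 5, all positive, at 1.95 and 4.47. Its contact with Pcdhb15 had the largest difference of a clustered member without passing (1.42 ± 0.41, adjusted p = 0.116, limma). The gamma fragments that met 9 and 5 members are short, 413 and 454 bases. Short shared fragments of other arrays had mostly positive differences too, but not in every line. In the beta array those of 592, 406 and 449 bases had 7 of 7, 5 of 6 and 5 of 5 positive. One of 485 bases in the alpha array had 6 of 6 (2.95 and 3.66). In DNMT_WT the mean score of each fell, from 4.79 to 4.13, 4.90 to 3.59, 4.31 to 3.50 and 4.93 to 3.15. In TET_WT each rose, from 1.78 to 5.08, 1.27 to 3.74, 1.36 to 5.05 and 1.36 to 2.36. TET_KO also rose in each, and DNMT_KO stayed at 4.81 in the first and rose in the others. The part of fragment length was not tested. In the opposite direction, a fragment inside Diaph1 beyond the gamma array (chr18:37849044-37850776) met 13 members, 11 of them negative, at 5.93 and 4.23. The contact of Pcdhb10 with an alpha fragment (chr18:36951811-36955318) had scores of 10.7, 5.39, 5.90 and 4.19 in ESC and of 0.72, 1.66, 3.11 and 1.67 in EpiLC, a difference of -1.32 ± 0.31 that did not pass (adjusted p = 0.0698). None of the 315 contacts of non-clustered members passed, the lowest being one of Cdh19 366 kb away (-1.59 ± 0.52, adjusted p = 0.154).

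The number of clustered contacts at a score of 5 or more was 254, 203, 216 and 279 over the ESC columns and 246, 272, 252 and 347 over those of EpiLC. The mean was 238 ± 34.9 in ESC and 279.25 ± 46.5 in EpiLC (SD, 4 lines), and the columns overlapped (exact two-sided permutation test over 70 splits, p = 0.257, adjusted p = 0.6 over the 7 comparisons made). These splits take no account of the pairing of columns by line, and 3 of 4 lines had more contacts in EpiLC. For the others it was 99 ± 10.98 and 113.5 ± 21.5 (exact permutation p = 0.4, adjusted 0.633). Their contacts over 1 Mb came to 1, 1, 2 and 4 for ESC against 5, 4, 7 and 22 for EpiLC, and each of the 4 lines had more at the later stage (exact permutation p = 0.0571, adjusted 0.4). In the whole table the mean number of such contacts was 3068.75 in ESC and 5427.25 in EpiLC.

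Whether the stage difference itself depended on the line family (TET or DNMT) or on the genotype (knock-out or wild type) was tested by limma with interaction terms. It called 0 of 15677 fragments in each, members included. At an unadjusted p under 0.05 there were 1222 and 708 fragments, among them 1 member in each.

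The knock-outs were set against their parental lines within a stage by subtracting 1 column from another. This has no replicate and no test, so members past a fold of 2 (0.69 on the asinh scale) were counted beside all fragments and beside the difference between the 2 wild-type lines. Without the DNA methyltransferases, clustered members had a median difference of -0.10 in ESC, with 5 of 22 positive where 49.5% of all fragments were. In EpiLC the median was 0.14, with 19 of 22 positive where 51.6% were, and 16 of 22 had opposite signs at the 2 stages, 4 were higher at both and 2 lower at both. Of all fragments 23.5% were higher at both stages and 22.4% lower at both, so that opposite signs were common there too. The other members were at 0.00 at both stages. In ESC, the clustered members differed by a like amount and sign between the wild types (TET_WT minus DNMT_WT, median -0.13, 6 of 22 positive). Past the fold, 1 member was higher in ESC (background 2.09%), Pcdh18 with 1.49 in DNMT_WT and 2.28 in DNMT_KO, which rests on 3 contacts. No member was lower in ESC (2.14%, and 4.23% either way), and in EpiLC none was higher (1.35%) or lower (1.15%, and 2.5% either way).

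Without the TET enzymes, clustered members had a median of 0.14 in ESC and 0.20 in EpiLC, with 18 of 22 positive at each stage, where 49.5% and 51.4% of all fragments were. The other members had medians of 0.25 and 0.05, the first of which turned to -0.0831 with at least 10 contacts. Higher at both stages were 16 of 22 clustered members, against 32.6% of all fragments. The TET_KO column in EpiLC also had the most contacts at 5 or more in the whole table (100796, against 83200 to 93930 in the other columns), and its part in these values was not tested. Between the wild types, TET_WT minus DNMT_WT was -0.13 in ESC and -0.03 in EpiLC in the clustered members, with 6 and 10 of 22 positive where 48% and 48.8% of all fragments were. The difference from TET_WT in ESC was thus about as large, with the opposite sign, as that between the 2 wild-type lines.

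Past the fold, 3 members were higher in TET_KO than TET_WT in ESC (background 3.37%) and 0 were lower (2.25%, and 5.63% either way). These were Cdh11 (0.76 in TET_WT and 2.52 in TET_KO, on 3 contacts), Pcdhb5 (2.00 and 3.08, on 8 contacts) and Cdh6 (0.62 and 1.61, on 9). For Cdh6 it was TET_WT that stood apart, since the DNMT lines had 1.49 and 1.51. In EpiLC 4 were higher (3.6%) and 0 lower (2.54%, and 6.14% either way): Pcdhb9 (1.26 and 2.45), Pcdh17 (1.52 and 2.46), Pcdh15 (1.34 and 2.21) and Cdh7 (1.36 and 2.18). All 6 listed contacts of Pcdhb9 reached 5 in TET_KO EpiLC and in no other column. They are therefore listed only through that column, which favours a high value there. Of the 9 listed contacts of Cdh7, 3 reached 5 in TET_WT EpiLC and 5 in TET_KO EpiLC, and none in a DNMT column. Of the 7 members past the fold in TET_KO, each had fewer than 10 complete contacts. Between the wild types 4 members passed the fold downwards in ESC (1.95%), namely Pcdhb5, Cdh6, Cdh4 and Pcdh9, and 0 upwards (2.16%, and 4.11% either way). In EpiLC only Cdh7 passed upwards (2.3%) and 0 downwards (2.58%, and 4.88% either way). The contacts of Cdh7 are listed only through TET columns, which favours a higher value in TET_WT.

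**Figure D4:**
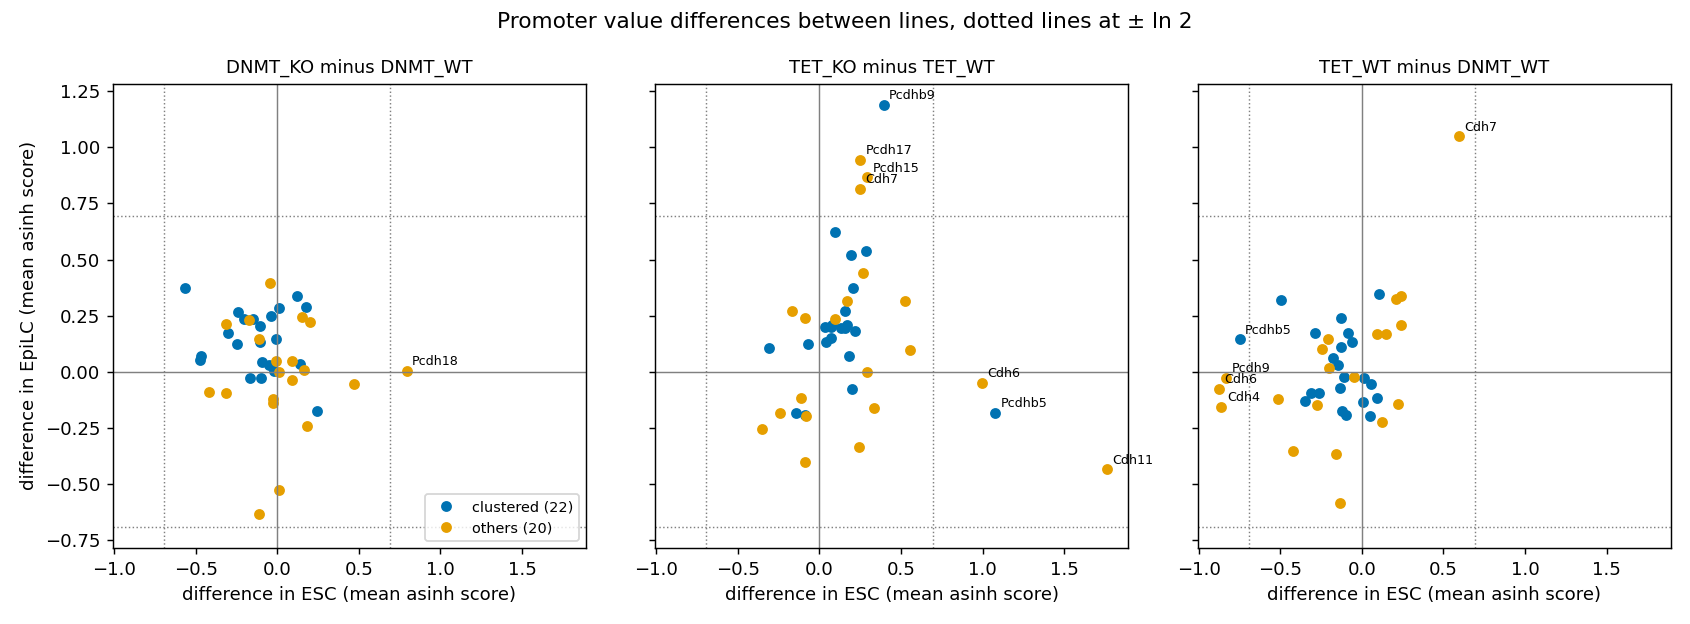
Difference of the promoter value (mean asinh score) between 2 lines in ESC (horizontal) and EpiLC (vertical), 1 point per tested member, with dotted lines at a fold of 2. Named points lie past it. The clustered members sit mostly to the upper right for TET_KO minus TET_WT (16 of 22 higher at both stages) and mostly above 0 in EpiLC only for DNMT_KO minus DNMT_WT (19 of 22).

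Members with the same sign at both stages and at least 5 contacts were ranked by the mean of the stages. For DNMT_KO the highest were Pcdhb14 (0.17 in ESC and 0.29 in EpiLC), Pcdhb10 (0.12 and 0.34), Cdh12 (0.20 and 0.22), Pcdh15 (0.15 and 0.24) and Pcdhb15 (0.01 and 0.29). Below 0 at both stages were Pcdh20 (-0.42 and -0.09), Pcdh17 (-0.32 and -0.09), Pcdhb22 (-0.17 and -0.03), Pcdh12 (-0.03 and -0.12) and Pcdhgc5 (-0.10 and -0.03). All of these are under the fold. For TET_KO the highest were Pcdhb9 (0.39 and 1.19, listed only through TET_KO EpiLC), Pcdh17 (0.25 and 0.95) and Pcdh15 (0.29 and 0.87). Cdh7 (0.25 and 0.82, listed only through TET columns) and Pcdh9 (0.53 and 0.32) followed. The lowest were Pcdh12 (-0.35 and -0.26), a vascular protocadherin, Cdh16 (-0.24 and -0.18), Pcdhb1 (-0.14 and -0.18), Pcdha3 (-0.09 and -0.19) and Cdh3 (-0.08 and -0.20).

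Partners of the cadherins were counted from a list of 76 gene symbols, in which some genes stand under both an old and a current name, and of which 55 had a fragment and 46 could be tested. By limma 3 rose in EpiLC and 1 fell, with a median of -0.05 and 17 of 46 positive. Over all fragments 3.73% rose, 5.14% fell and 48.2% were positive, so the share called was near the background. Those that rose were Nipbl, which loads cohesin onto DNA (0.54 ± 0.12, adjusted p = 0.015), Pvrl3, the adhesion protein nectin-3 (0.97 ± 0.27, 0.035), and Clstn3, a cadherin-like protein of synapses (0.55 ± 0.13, 0.023). Fat2, a giant cadherin, fell (-0.55 ± 0.13, 0.018). The catenins and other junction partners had 0 of 7 called, and so had the 7 tested factors that act on cadherin genes.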

How the data were processed

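The deposited table gives CHiCAGO interaction scores made by the authors, 1 column for each of 8 groups, never negative and 5 or more in at least 1 column of each row. The way 2 replicates became 1 column, the read aligner and the version of CHiCAGO were not given in the sources, and depth is unknown. Trim Galore 0.6.5, cutadapt 2.3 and GRCm38 are named in the submitters' processing notes. The 15344 contacts without a score in some column (of 260860) were left out of promoter values. Values were asinh scores that were then quantile-normalised between columns. Stage was fitted with limma 3.58.1 in R 4.3.3 (line as block, eBayes with trend) over 15677 fragments with at least 3 complete contacts and over 244865 cis contacts, adjusted by Benjamini-Hochberg at 0.05, and the fit was tested on simulated data. Standard errors borrow spread across fragments, and each knock-out shares its origin with a wild type, so that 4 lines are fewer than 4 independent sources. The labels do not say whether replicates were separate cultures. Named were all members past the threshold, the 6 largest differences each way per group, and a set list of classical cadherins and delta protocadherins. For the knock-outs they were those past the fold and the 5 largest each way, and for contacts those called, the largest, the highest mean scores and the shared partners. Members, lists and rules were chosen with earlier results of these data known. Alternatives covered scaling, minimum of contacts, distance, missing scores, the count measure, the trend, the fold and each line left out. RefSeq tables (GRCm38.p6) gave gene spans and promoters.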

Additional observations from a re-analysis of the deposited data

Results flagged for a closer look

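In 68 groups of 4 columns (the 4 lines at 1 stage, for each named member and each count of contacts), 6 held a column far from the other 3, and chance gives about 1 in 20. In ESC, the Pcdha11 fragment had a promoter value of 2.21 in TET_KO against 2.05 to 2.08 in the other lines, and Cdh6 had 0.62 in TET_WT against 1.49 to 1.61. In EpiLC, Pcdhb2 had 1.93 in TET_WT against 2.12 to 2.16, and Cdh15 had 2.17 in TET_KO against 1.88 to 1.93. The non-clustered members had 72 contacts of 100 kb to 1 Mb at 5 or more in TET_WT ESC, against 90 to 91 in the other ESC columns. They had 22 contacts over 1 Mb in TET_KO EpiLC, against 4 to 7 in the other EpiLC columns.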

How the results depend on the processing

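By replicate number, no paired analysis was possible because the table has 1 column per group. The limma fit paired ESC with EpiLC by line. Of the settings tried, other scalings left the 3 called members past the threshold. The number of clustered members called went from 1 to 0, and that of the others from 2 to 0, with no minimum of contacts, with the number of contacts at 5 or more, and with the wild-type lines only. With missing scores as 0 they were 0 and 1, without the eBayes trend the clustered number was 0, and with at least 10 contacts or within 1 Mb the others were 1. Leaving out a line gave 0 to 1 clustered and 0 to 2 other members. Over all fragments the calls were 585 rises and 806 falls, 905 and 442 without scaling, and 643 and 575 with columns divided by their mean. Leaving out a line gave 12 to 273 rises and 13 to 342 falls, and no minimum of contacts 9 and 12. The called clustered contacts numbered 1 under each other scaling and 0 with missing scores as 0, without the trend and with any line left out. Within 1 Mb, 1 contact of the others was called.

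Signs that turned belonged to members without a call. Cdh4 was 0.00534 without scaling and ran from -0.226 to 0.00844 with 1 line left out. Cdh11 was 0.0741 without scaling, 0.0513 with columns divided by their mean, 0.50 by the number of contacts and 0.594 in the wild types, and ran from -0.344 to 0.387 with 1 line left out. Pcdhb5 was 0.225 by the number of contacts and 0.116 in the wild types, and ran from -0.274 to 0.145. Pcdhb2 was 0.0323 by the number of contacts. Pcdh8 ran from -0.0124 to 0.0857 and Cdh6 from -0.00199 to 0.445, both lowest without TET_WT. The causes were not tested.

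Past the fold, DNMT_KO in ESC had 1 clustered member under each other scaling. The others in DNMT_KO ESC had 0 with at least 10 contacts, within 1 Mb and with missing scores as 0. With at least 10 contacts TET_KO had 0 members in both groups and stages, and the median of the others in ESC turned to -0.0831. Within 1 Mb the others in TET_KO had 1 in ESC and 0 in EpiLC, and with missing scores as 0 they had 4 and 5. There Cdh7 in ESC was -0.15, and Pcdh15 in DNMT_KO ESC was -0.0835 within 1 Mb. With a fold threshold of 0.5 ln 2 the clustered and other members were 3 and 3 for DNMT_KO ESC, 1 and 3 for DNMT_KO EpiLC, 2 and 5 for TET_KO ESC, and 5 and 6 for TET_KO EpiLC. The beta to gamma median ran from 0.17 (wild types) to 0.31 (without DNMT_WT) and the beta to alpha median from -0.23 to -0.14, settings added after seeing the data. Depth is unknown and cannot be weighed.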
